A study of Mus musculus with 6 samples.

Results

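Megalin (Lrp2), cubilin (Cubn) and the 5 genes that help them work were examined as one group of 7: Lrp2, Cubn, Amn, Dab2, Clcn5, Lrpap1 and Ocrl. Members were taken as the probes whose gene name in the scanner files is one of these symbols, which gave 17 of the 41174 probes of the array and 7 of its 27343 named genes or accessions. The RNA came from whole mouse kidney and was hybridised to 6 single-colour Agilent arrays. The groups were Gpr97-deficient mice after renal ischaemia/reperfusion injury (1 array), wild-type mice after the same injury (2 arrays), sham-operated Gpr97-deficient mice (1 array) and sham-operated wild-type mice (2 arrays). All mice are labelled male. In ischaemia/reperfusion injury the blood supply of the kidney is stopped and then restored; Gpr97 is the older name of Adgrg3, an adhesion G protein-coupled receptor. No source used here gives the strain, age, allele, length of ischaemia or sampling time.

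Megalin and cubilin are large receptors of the brush border of the proximal tubule. They bind albumin, vitamin-binding proteins, hormones and other small proteins that pass the glomerular filter, and carry them through clathrin-coated pits into endosomes and lysosomes. Cubilin has no membrane-spanning part and depends on amnionless (Amn) to reach the cell surface. Loss of megalin, cubilin, amnionless, the chloride/proton exchanger ClC-5 (Clcn5) or the inositol phosphatase OCRL (Ocrl) causes loss of protein in the urine in people, as in Donnai-Barrow, Imerslund-Gräsbeck, Dent and Lowe syndromes.

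Signals are given as log2 of the processed signal relative to the 75th percentile of its own array, so a step of 1 is a 2-fold difference, and levels of different probes are not compared. Between 62.9% and 71.0% of probes were well above background on each array, no probe of these genes was below background on more than 1 array, and no spot was saturated. Adgrg3 was at 0.02 or higher on the wild-type arrays and at most at -5.38 on the Gpr97-deficient arrays, which follows the genotype labels. The array called wild-type injured 1 stands apart: its Xist signal was 4.05 against at most -5.45 on the other 5 arrays, and 0 of 4 Y-linked genes were well above background on it, which goes against its label as male. The injury changes of the 7 genes and of the gene lists are therefore given with and without it; values of single genes outside the 7 include it unless stated. The arrays sit on 2 slides that also differ in scan and in version of the extraction software. Slide 1 holds wild-type injured 2 and wild-type sham 1, and slide 2 holds the other 4 arrays. Injured and sham arrays that share genotype and slide form 3 pairs: 1 Gpr97-deficient pair and 1 wild-type pair on slide 2, and 1 wild-type pair on slide 1.

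For 6 probes of these genes the genomic span is longer than the probe, which is taken here as crossing an exon junction. No exon annotation was used. The second Lrpap1 probe, with a listed span of 11 bases, was not counted. Of the 6 probes 5 are shown first, because each is taken to read spliced messenger RNA of the named gene. The Ocrl probe among the 6 is left out because it was well above background on 5 of 6 arrays only. For megalin 2 such probes sit far apart on the transcript, starting at bases 3722 and 12941, so they read separate stretches of a long message. They lie on the minus strand of mm9 at chr2:69345884-69346029 and chr2:69274792-69275529, with the presumed intron inside each span. The amnionless probe spans chr12:112514095-112514243 on the plus strand, the Lrpap1 probe chr5:35435982-35437504 on the minus strand and the Dab2 probe chr15:6374197-6374640 on the plus strand. The amnionless and Lrpap1 probes are also the ones that give these genes their values, while the Dab2 probe is not the one used for Dab2. All 5 sequences are 60 bases long and are given 5′ to 3′ as the scanner files hold them.
Lrp2 A_51_P174921: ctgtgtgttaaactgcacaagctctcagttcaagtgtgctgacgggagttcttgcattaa
Lrp2 A_52_P460882: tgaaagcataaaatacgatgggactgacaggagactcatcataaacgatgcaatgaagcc
Amn A_51_P343350: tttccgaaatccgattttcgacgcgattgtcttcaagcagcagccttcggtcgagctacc
Lrpap1 A_52_P583973: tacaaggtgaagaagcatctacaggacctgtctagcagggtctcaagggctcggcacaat
Dab2 A_52_P17534: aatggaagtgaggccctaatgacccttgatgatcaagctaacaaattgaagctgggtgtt

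The receptors come first. Megalin, the scavenger receptor that gives the system its reach, was lower on every injured array. Its brightest probe read 5.46 on the Gpr97-deficient injured array and 6.29 and 5.41 on the wild-type injured arrays 1 and 2, against 6.84 on the Gpr97-deficient sham array and 7.04 and 7.18 on the wild-type sham arrays 1 and 2. In the scanner's own units the processed signal was 29912, 39507 and 25155 on these injured arrays and 69024, 81058 and 87279 on these sham arrays. The groups did not overlap, and wild-type injured 1 was the nearest of the injured arrays to the sham arrays, at 0.55 below the lowest of them. Injured arrays averaged 5.72 ± 0.50 and sham arrays 7.02 ± 0.17 (SD, n = 3 each). The injury change over both genotypes was -1.30 (SE 0.27, 95% interval -1.99 to -0.60), a 2.46-fold lower signal, with limma adjusted p = 0.269 over 19611 genes. It was -1.56 without wild-type injured 1 (adjusted p = 0.159). In whole tissue, fewer proximal tubule cells and less of the message per cell cannot be told apart.

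Cubilin, the receptor for intrinsic factor with vitamin B12 and for albumin, had the next largest change. It read 4.01 on the Gpr97-deficient injured array and 4.93 and 4.26 on the wild-type injured arrays, against 5.16 on the Gpr97-deficient sham array and 5.53 and 5.47 on the wild-type sham arrays. The groups did not overlap by a gap of 0.23, and wild-type injured 1 was again the highest injured array. The change was -0.99 (SE 0.23, 95% interval -1.57 to -0.40), a 1.98-fold lower signal, with limma adjusted p = 0.286, and -1.20 without wild-type injured 1 (adjusted p = 0.16). The 1 probe for Cubn lies at chr2:13197988-13198047 of mm9 on the minus strand.

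Amnionless, which anchors cubilin in the membrane, read 3.76 on the Gpr97-deficient injured array and 4.16 and 3.41 on the wild-type injured arrays. The sham arrays gave 4.40 in Gpr97 deficiency and 4.17 and 4.81 in wild type. Injured and sham values touch: wild-type injured 1 lay only 0.0026 below wild-type sham 1. The change was -0.68 (SE 0.29, 95% interval -1.43 to 0.06; limma adjusted p = 0.436), and -0.89 without wild-type injured 1 (adjusted p = 0.257).

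Lrpap1 encodes the receptor-associated protein, a chaperone that keeps megalin and its relatives from binding ligands too early in the endoplasmic reticulum. It read 4.37 on the Gpr97-deficient injured array and 5.03 and 3.98 on the wild-type injured arrays, against 5.15 on the Gpr97-deficient sham array and 4.99 and 5.76 on the wild-type sham arrays. Wild-type injured 1 lay 0.03 above wild-type sham 1, so the groups overlapped by that much. The change was -0.84 (SE 0.36, 95% interval -1.77 to 0.09; limma adjusted p = 0.439). It was -1.13 without wild-type injured 1 (adjusted p = 0.241), and the groups no longer overlapped.

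The members on the inner side of the membrane follow. Dab2, the adaptor that links the tail of megalin to clathrin, read 4.43 on the Gpr97-deficient injured array and 3.92 and 4.76 on the wild-type injured arrays, against 3.94 on the Gpr97-deficient sham array and 3.99 and 4.16 on the wild-type sham arrays. The highest values belong to 2 injured arrays and the lowest to wild-type injured 1, so the groups overlapped. Its change was 0.34 (SE 0.26, 95% interval -0.34 to 1.02; limma adjusted p = 0.645). With that array left out it was 0.60 (adjusted p = 0.238).

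Clcn5, the exchanger that brings chloride into early endosomes as they acidify, read 2.29 on the Gpr97-deficient injured array and 2.19 and 2.77 on the wild-type injured arrays. Its sham arrays lay close together, at 2.38 in Gpr97 deficiency and 2.45 and 2.40 in wild type, inside the range of the injured arrays. The change was 0.0094 (SE 0.21, 95% interval -0.52 to 0.54), so a change within these bounds was not detectable, and it was 0.16 without wild-type injured 1. Ocrl, the phosphatase that removes phosphatidylinositol 4,5-bisphosphate from endosomes, read 1.32 on the Gpr97-deficient injured array and 1.04 and 1.34 on the wild-type injured arrays, against 1.35 on the Gpr97-deficient sham array and 1.55 and 1.41 on the wild-type sham arrays. All injured values were lower, by as little as 0.0062, and the change was -0.20 (SE 0.17, 95% interval -0.65 to 0.24; limma adjusted p = 0.674), or -0.09 without wild-type injured 1.

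**Figure D1:**
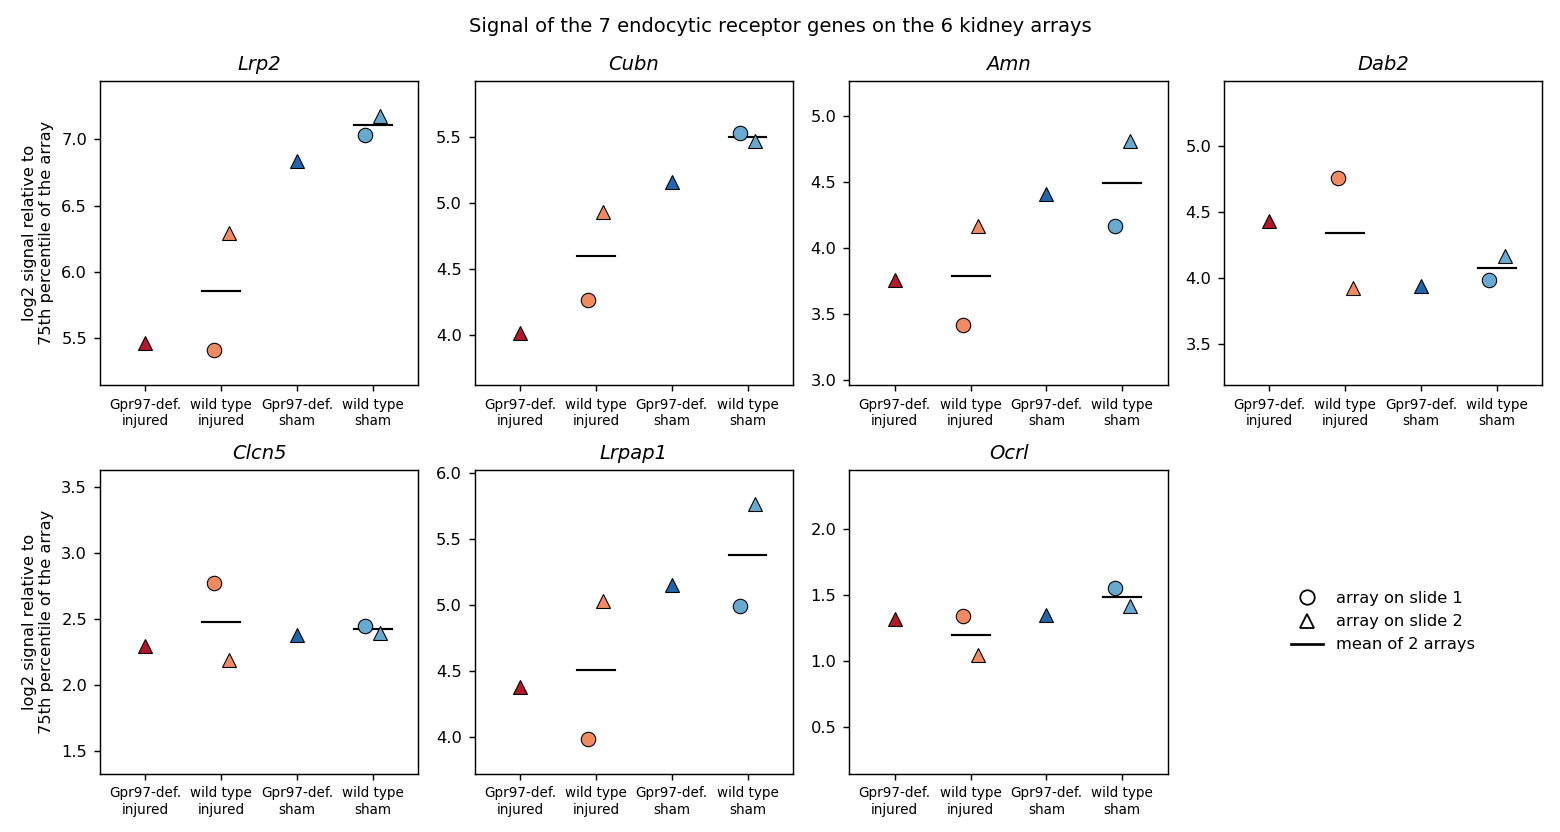
Signal of each of the 7 genes (log2, scaled to each array's 75th percentile, each panel spanning the same range) on every array, with Gpr97-deficient and wild-type injured groups to the left of the sham groups; circles are arrays on slide 1, triangles arrays on slide 2, and bars the mean of 2 arrays. Lrp2 and Cubn lie lower on all injured arrays, whereas Dab2 and Clcn5 overlap.

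No gene of the whole array passed an adjusted p of 0.05 for injury over both genotypes in limma: 0 of 19611, or 0.0%, with 2408 at an unadjusted p under 0.05. None of the 7 was therefore called, and the counts that follow are descriptions. The 7 genes were chosen with earlier results of these data known, so a count above the share of all genes is not a test. The injured arrays lay wholly below the sham arrays for 4 of the 7 genes (Lrp2, Cubn, Amn and Ocrl), against 13.1% of all genes tested, and wholly above for 0 of 7, against 9.68%. Without wild-type injured 1 the first count was 5 of 7, against 21.2% of all genes, and the second 1 of 7 (Dab2), against 14.4%. Only the Lrp2 and Amn groups stayed apart under all 4 scalings tried. With background correction by normexp the highest injured value of Cubn lay 0.01 above its lowest sham value, which left 2 of 7 genes apart, against 11.2% of all genes. An unadjusted p under 0.05 with a lower signal was found for 2 of 7 (Lrp2 and Cubn), against 6.72% of all genes. The median change of the 7 was -0.68, against -0.06 for all genes, and 2.1% of all genes had a change at least as low as that of megalin.

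The same direction held within slides for the genes of the uptake complex. In the pairs of Gpr97-deficient arrays on slide 2, wild-type arrays on slide 2 and wild-type arrays on slide 1, megalin differed by -1.38, -0.88 and -1.63, and cubilin by -1.14, -0.54 and -1.27. For amnionless the same differences were -0.65, -0.65 and -0.75, and for Lrpap1 they were -0.77, -0.73 and -1.01. All 3 pairs were lower for 5 of the 7 genes (these 4 and Ocrl), against 26.4% of all genes, while Dab2 and Clcn5 differed in sign between pairs. The pair with wild-type injured 1 gave the smallest difference for megalin, cubilin, amnionless and Lrpap1. A signal at least 2-fold lower was reached by 2 of 7 genes in the Gpr97-deficient pair (5.32% of all genes), 0 of 7 in the wild-type pair on slide 2 (4.64%) and 3 of 7 in the wild-type pair on slide 1 (9.74%).

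All 4 megalin probes were lower on every injured array than on any sham array. Their changes over both genotypes were -1.02, -1.05, -0.86 and -1.30, in order along the transcript from base 3722 through 12941 and 14151 to 15233, with limma adjusted p between 0.257 and 0.366 over 29910 probes. The change of the probe nearest the 5′ end lay within the range of the other 3. Both Lrpap1 probes were lower in all 3 pairs, with changes of -0.84 and -0.67. The values of Dab2 and Ocrl depended on the probe: the other 2 Dab2 probes gave 0.03 and 0.06, and the other 3 Ocrl probes gave 0.01 to 0.07, against 0.34 and -0.20 for the probes that stand for these genes. Those 3 Ocrl probes were dim, with processed signals from 20 to 81, so their changes say little about Ocrl. Over all members 8 of 17 probes had injured arrays wholly below sham arrays, against 12.6% of all probes tested, but probes of 1 gene read the same message and are not separate evidence.

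**Figure D2:**
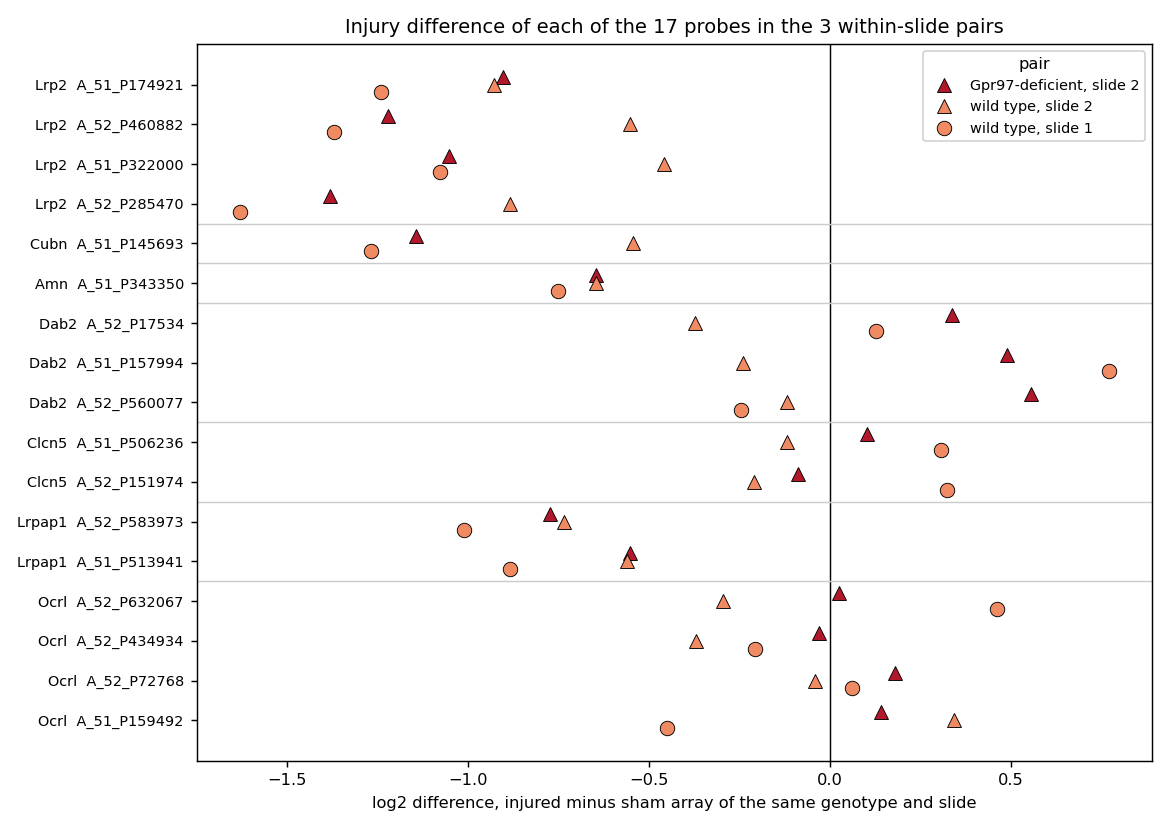
Difference in log2 signal between the injured and the sham array of the same genotype and slide, for each of the 17 probes (rows, grouped by gene) in the 3 pairs (symbols). All probes of Lrp2, Cubn, Amn and Lrpap1 lie left of 0 in every pair, and the probes of Dab2, Clcn5 and all but 1 of Ocrl fall on both sides.

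The injury changes of megalin and cubilin can also be set against those of Dab2 and Clcn5 within the arrays. Lrpap1 and Ocrl, which also act inside the cell, stood at -0.84 and -0.20 and were not part of this comparison. The change of megalin differed from that of Dab2 by -1.64 on the log2 scale, and that of cubilin by -1.32. In the Gpr97-deficient pair, the wild-type pair on slide 2 and the wild-type pair on slide 1 the difference between megalin and Dab2 was -1.87, -0.64 and -2.40, smallest in the pair with wild-type injured 1. Without that array it was -2.16. It rests in part on the choice of Dab2 probe, running from -1.64 to -1.33 over the 3 probes. Against Clcn5 the change of megalin differed by -1.31, or -1.72 without wild-type injured 1. These pairs of genes were chosen with the values known, so no p is given.

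The next question is whether injury acted on these genes in both genotypes. In Gpr97 deficiency, with 1 injured and 1 sham array whose spread is assumed to be that of the wild-type arrays, the change was -1.38 for Lrp2 (SE 0.54), -1.14 for Cubn, -0.65 for Amn, -0.77 for Lrpap1, -0.03 for Ocrl, -0.09 for Clcn5 and 0.49 for Dab2, with limma adjusted p of 0.9999 for each. In wild type, with 2 arrays a group, the changes were -1.26 for Lrp2 (SE 0.39), -0.91 for Cubn, -0.70 for Amn, -0.87 for Lrpap1, -0.29 for Ocrl, 0.06 for Clcn5 and 0.27 for Dab2, with adjusted p between 0.769 and 0.993. There 2 of 7 had an unadjusted p under 0.05 with a lower signal (Lrp2 and Cubn), against 3.17% of all genes. Without wild-type injured 1 the wild-type changes were -1.70 for Lrp2, -1.24 for Cubn, -1.07 for Amn, -1.40 for Lrpap1, -0.14 for Ocrl, 0.35 for Clcn5 and 0.68 for Dab2, and their median was -1.07, against -0.70 with it. The difference between genotypes then turned sign for Lrp2 (0.32), Cubn (0.09) and Dab2 (-0.19). The difference between the genotypes' injury changes lay between -0.24 and 0.26 for the 7 genes with all arrays (limma adjusted p = 0.9999 for each). Its 95% interval for megalin ran from -1.96 to 1.71, so a 2-fold difference between the genotypes, in either direction, was not detectable. Genes called were 0.0% in each of these comparisons, and at an unadjusted p under 0.05 there were 535 in Gpr97 deficiency, 1254 in wild type and 291 for the difference.

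**Figure D3:**
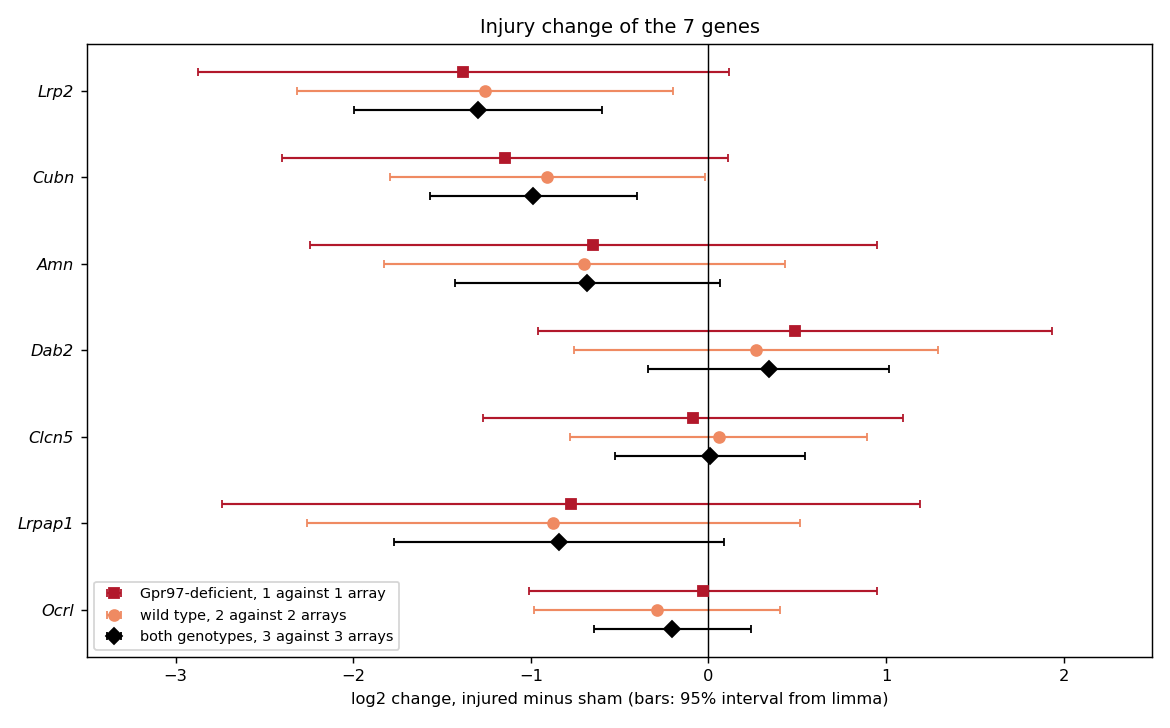
Injury change (log2, injured minus sham) of the 7 genes in Gpr97 deficiency, in wild type and over both genotypes, with 95% intervals from limma as bars. The intervals over both genotypes leave out 0 for Lrp2 and Cubn, and those in Gpr97 deficiency include 0 for all 7 genes.

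Gpr97 deficiency itself was set against wild type within each surgery. Both Gpr97-deficient arrays are on slide 2 and the wild-type arrays on both slides, so these values depend on how slide is treated. After injury the 7 genes differed by -0.58 (Cubn) to 0.12 (Ocrl), with -0.39 for Lrp2 (SE 0.47) and limma adjusted p of 0.9999 for each. Their median was -0.13, against -0.38 with slide as a block and -0.41 within slide 2. Without wild-type injured 1 the difference for Lrp2 was 0.05, and those for Amn, Lrpap1, Dab2 and Ocrl also turned sign. After sham surgery the 7 genes differed by -0.35 (Cubn) to -0.04 (Clcn5), with adjusted p of 1.0 for each and all intervals wider than 0.5 to either side of 0. Their median was -0.13, against -0.43 with slide as a block and -0.32 within slide 2. With the block Lrpap1 was at -0.68, against -0.23 without it, and Amn at -0.43, against -0.08, while Dab2 and Clcn5 stood above 0. Over both surgeries Cubn was at -0.47 (SE 0.24) and Lrp2 at -0.33 (SE 0.29), with limma adjusted p of 0.993 for each, and the median of the 7 was -0.11, against -0.41 with slide as a block. Genes called were 0.0% in each, with 281 after injury, 420 after sham and 639 over both surgeries at an unadjusted p under 0.05.

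The cells that carry the receptors were then followed through their own markers. Of 19 proximal tubule markers tested, among them Gatm, Slc34a1 and Slc5a2, 18 were lower in injury with a median change of -0.90, 10 had injured arrays wholly below sham arrays, against 13.1% of all genes, and 0 passed the adjusted test. Without wild-type injured 1 the median was -1.10 and the count wholly below 14 of 19, against 21.2% of all genes. Their summed level, in units of the 75th percentile, was 1286 to 1854 on injured and 2196 to 3408 on sham arrays, and all 19 were well above background on every array. Relative to the wild-type sham mean their median was -1.04 on the Gpr97-deficient injured array and -0.61 and -1.30 on the wild-type injured arrays 1 and 2. The median of the 7 genes followed the same order of arrays, at -0.73, -0.35 and -1.07. The part of this marker shift in the change of megalin and cubilin was not tested.

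Genes known to mark injured tubules were higher. All 12 tubular injury genes were higher, with a median of 2.51, and 11 of them had injured arrays wholly above sham arrays, against 9.68% of all genes. With wild-type injured 1 left out the median was 3.13 and the count again 11, against 14.4% of all genes. They also ranked the injured arrays alike, with medians of 3.05, 2.22 and 3.55 on the Gpr97-deficient and the wild-type injured arrays 1 and 2. Markers of the thick limb, distal tubule and collecting duct had a median change of -0.46 (11 of 13 lower). Slc4a1 is in this list and also among the red blood cell markers. The median was 0.10 for podocyte markers, -0.05 for endothelial, 0.22 for macrophage and 1.05 for fibroblast markers. With wild-type injured 1 left out the medians of these lists, in the same order, were -0.92, 0.19, -0.01, 0.06 and 1.17. Neutrophil and red blood cell markers differed in sign between the genotypes. The neutrophil median was -0.86 for injury in Gpr97 deficiency and 2.05 in wild type, and the red blood cell median -1.87 in Gpr97 deficiency and 0.95 in wild type; the difference between genotypes was not tested for these lists. The Gpr97-deficient sham array stood apart in both, at 3.72 and 4.64 above the wild-type sham mean, and wild-type injured 1 was at 3.62 for red blood cell markers. Of the 10 neutrophil genes, 6 were not well above background on wild-type sham 1 and 3 on wild-type sham 2. The same held for 5 on wild-type injured 2 and 1 on the Gpr97-deficient injured array. The neutrophil differences therefore rest in part on signals near background. Over both genotypes their medians were 1.32 and 0.10, or 0.55 and -1.50 without wild-type injured 1. Called genes were 0 in each list. Dab2 is also made by macrophages and fibroblasts, whose summed marker levels were 19.2 to 33.6 and 49.0 to 66.6 on injured arrays, against 15.7 to 38.6 and 31.1 to 40.1 on sham arrays. Their part in the Dab2 signal was not tested.

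**Figure D4:**
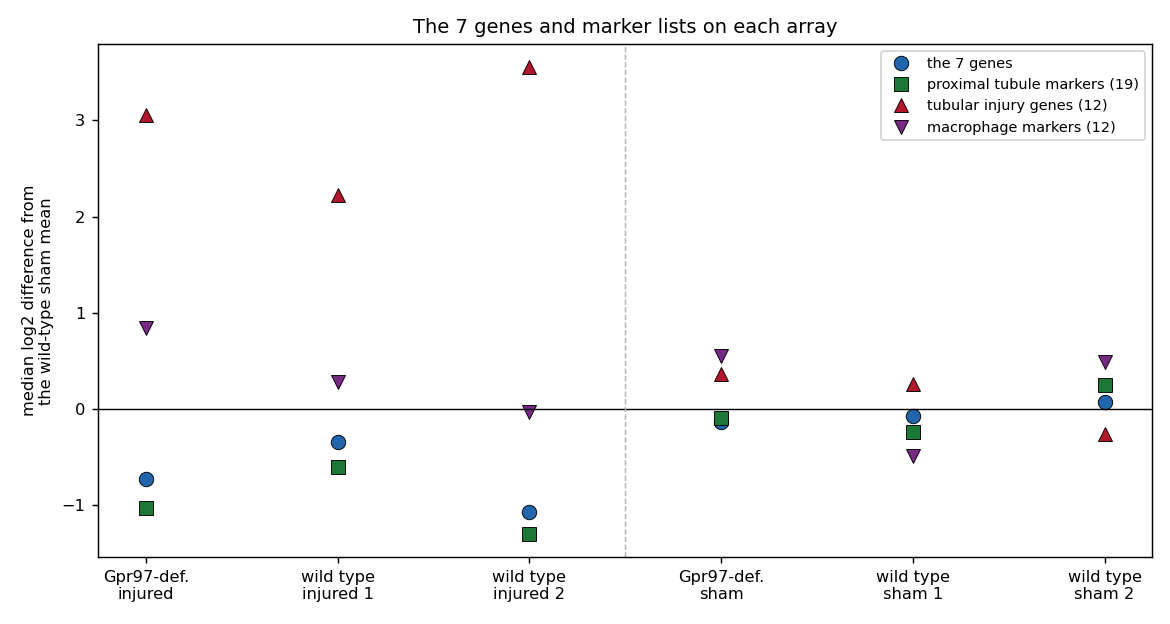
Median log2 difference from the wild-type sham mean for the 7 genes and 3 marker lists (symbols) on each array, injured arrays left of the dashed line and sham arrays right of it. The 7 genes and the proximal tubule markers lie lowest on wild-type injured 2 and nearest to sham on wild-type injured 1, where the tubular injury genes are lowest among the injured arrays.

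Downstream of the receptors, the machinery of clathrin-coated pits and early endosomes had a median injury change of 0.00 over 35 genes, with and without wild-type injured 1. With all arrays 17 were lower and 18 higher, and 0 were called. The list went both ways: 6 had injured arrays wholly below sham arrays, against 13.1% of all genes. Another 9 had them wholly above, against 9.68%. Without wild-type injured 1 these counts were 10, against 21.2% of all genes, and 11, against 14.4%. The largest moderated t belonged to Ap2b1, a subunit of the clathrin adaptor AP-2, at 0.79 (SE 0.17, limma adjusted p = 0.273), Anxa2 at 1.80, Cd2ap at 0.68 and Appl2, an effector of Rab5 on early endosomes, at -0.74. Inpp5b, the close relative of Ocrl, stood at -0.10, or -0.27 without wild-type injured 1.

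Acidification genes leaned lower. The list of 27 genes holds subunits of the vacuolar proton pump, chloride and sodium exchangers with their partner proteins, and Cltrn, collectrin, which is neither pump nor exchanger. Of these 23 were lower, with a median of -0.21, and 10 had injured arrays wholly below sham arrays, or 37.0% against 13.1% of all genes. The median without wild-type injured 1 was -0.30 and 13 were wholly below, against 21.2% of all genes. None was called. Slc9a3, the sodium/proton exchanger of the brush border, read 1.76 on the Gpr97-deficient injured array and 1.98 and 1.69 on the wild-type injured arrays, against 2.62 on the Gpr97-deficient sham array and 2.41 and 2.65 on the wild-type sham arrays. Its change was -0.75 (SE 0.17, limma adjusted p = 0.286). Cltrn, which brings amino acid transporters to the brush border, stood at -1.11, Atp6v1d at -0.50 and Atp6v0a1 at 0.44. Clcn4, the relative of Clcn5, stood at -0.11 and the pump subunit Atp6v0a4 at 0.08, or -0.25 and -0.17 without wild-type injured 1.

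Lysosomal genes split. Of 24 genes 14 were lower and 10 higher, with a median of -0.10 (-0.21 without wild-type injured 1) and 0 called. Injured arrays lay wholly below sham arrays for 8, against 13.1% of all genes, and wholly above for 6, against 9.68%. Without wild-type injured 1 these counts were 10, against 21.2% of all genes, and 8, against 14.4%. The cathepsins Ctsd, Ctsc and Ctsb were among the higher genes. Ctsd differed by 0.69 (SE 0.20, limma adjusted p = 0.33), Ctsc by 0.74 and Ctsb by 0.30. Each had injured arrays wholly above sham arrays, as did 9.68% of all genes. Other cathepsins of the list are not reported here. Gla, which encodes alpha-galactosidase A, stood at 0.60, and Lamp2, a protein of the lysosomal membrane, at -0.50.

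Other receptors for protein uptake showed both directions, with 8 of 18 lower, a median of 0.04 (0.0065 without wild-type injured 1) and 0 called. Folr1, the folate receptor of the proximal tubule, read 5.12 on the Gpr97-deficient injured array and 5.22 and 4.82 on the wild-type injured arrays, against 5.87 on the Gpr97-deficient sham array and 5.79 and 6.17 on the wild-type sham arrays. Its change of -0.89 (SE 0.20, limma adjusted p = 0.285) was close to that of cubilin. Lrp1, a relative of megalin found in many cell types, was higher: it read 1.18 on the Gpr97-deficient injured array and 1.07 and 0.77 on the wild-type injured arrays, against -0.26 on the Gpr97-deficient sham array and 0.44 and 0.12 on the wild-type sham arrays. Its change was 0.91 (SE 0.25, limma adjusted p = 0.326). Scarb1, the HDL receptor, stood at 0.59. Lrp8 was well above background on the 3 injured arrays and on 0 sham arrays. It read -4.44 on the Gpr97-deficient injured array and -4.71 and -2.01 on the wild-type injured arrays, so wild-type injured 2 carries most of the signal. The injured mean set against the mean of the sham arrays' floors of detection gave a signal at least 2.89-fold higher in injury, or at least 1.6-fold without wild-type injured 2. No test was made of this bound. With the sham signals as read, the change was 2.49 (limma adjusted p = 0.348).

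Genes for proteins that megalin or cubilin bind also went both ways, with 14 of 26 lower, a median of -0.05 (-0.13 without wild-type injured 1) and 0 called. Clu, clusterin, read 6.24 on the Gpr97-deficient injured array and 6.20 and 7.23 on the wild-type injured arrays, against 4.39 on the Gpr97-deficient sham array and 4.23 and 4.68 on the wild-type sham arrays, a change of 2.13 (SE 0.33, limma adjusted p = 0.26). The metallothioneins Mt2 and Mt1 stood at 2.48 and 1.63; these near-identical short messages may share probe signal. Lpl, lipoprotein lipase, stood at -1.70. These are levels in kidney RNA, and most ligands reach the tubule from blood.

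Transcription factors of the proximal tubule were lower for 15 of 18, with a median of -0.33 (-0.43 without wild-type injured 1) and 0 called. Hnf4a, a factor that drives proximal tubule genes, stood at -0.65 (SE 0.17, limma adjusted p = 0.324) with injured arrays wholly below sham arrays. Irx1 and Maf were at -0.86 and -0.77, and Pax8 at 0.45. Genes linked to proximal tubule disease were lower for 17 of 20, with a median of -0.40. For 10 of them injured arrays lay wholly below the sham arrays, against 13.1% of all genes. The median without wild-type injured 1 was -0.54 and 12 were wholly below, against 21.2% of all genes. Gatm, the first enzyme of creatine synthesis, stood at -2.11, the neutral amino acid transporter Slc6a19 at -1.64 and the cystine transporter subunit Slc3a1 at -0.81. These lists overlap with the markers and with each other, and their members were chosen with results of these data known.

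**Figure D5:**
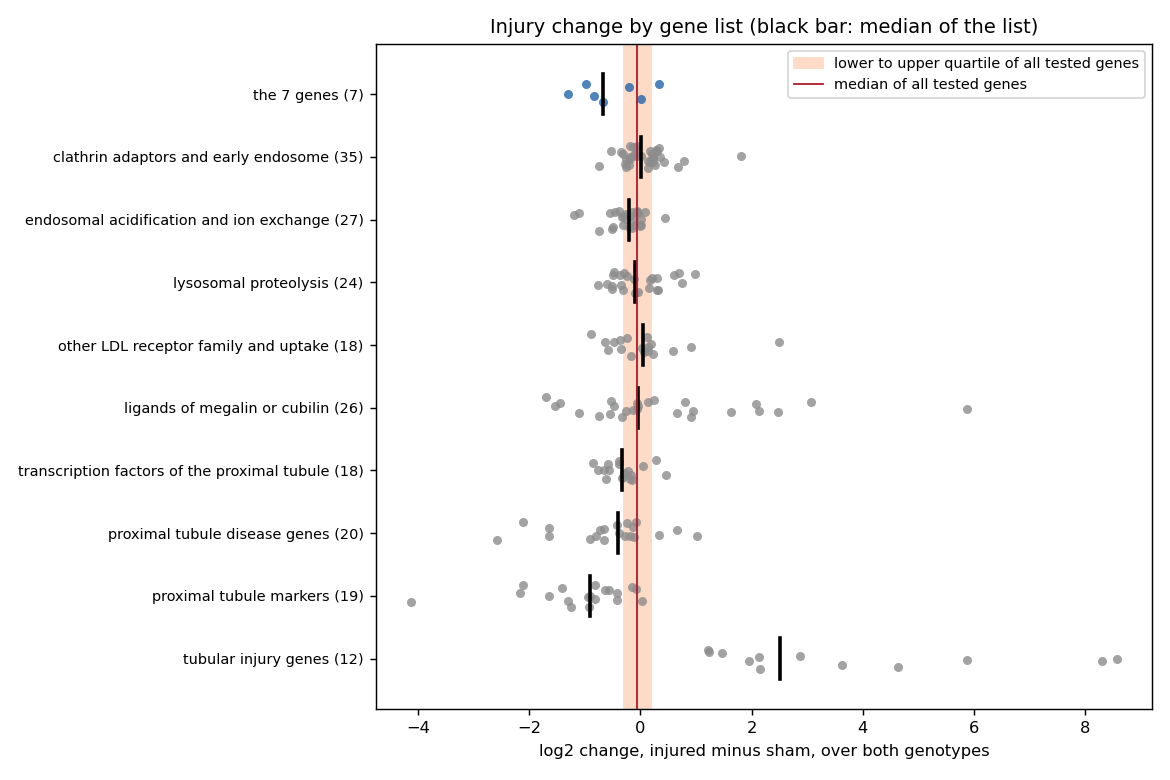
Injury change over both genotypes (log2) of each tested gene (points) in the 7 genes and the lists named in the text, with the number of genes in brackets, the median of each list as a black bar and all tested genes as the shaded band (lower to upper quartile) and red line. The median of the 7 genes lies between those of the proximal tubule disease genes and the proximal tubule markers, and the tubular injury genes lie far to the right.

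The genes whose signal ran most like that of megalin over the 6 arrays were found among 12854 genes well above background on all arrays. Genes with accession-like, Rik or Gm names were left out of this search. The arrays share the grouping by surgery, so any gene that differs by surgery scores highly and Pearson's r is a description. They were Cyp2d34 (r = 0.997), Galk2 (0.996), Slc31a1 (0.995), Dnajc6 (0.995) and Akr1c21 (0.995). Slc31a1 is a copper importer, Dnajc6 encodes auxilin, which strips clathrin from vesicles, Galk2 is an N-acetylgalactosamine kinase, and Akr1c21 and Cyp2d34 belong to the aldo-keto reductase and cytochrome P450 families. Akr1c21 read 4.83 on the Gpr97-deficient injured array and 6.17 and 4.72 on the wild-type injured arrays, against 7.25 on the Gpr97-deficient sham array and 7.23 and 7.87 on the wild-type sham arrays, the same order of injured arrays as megalin. Cubn ranked 60 in this list (r = 0.979), Lrpap1 648, Amn 714, Ocrl 4889, Clcn5 8741 and Dab2 11396 (r = -0.78). For cubilin the closest were Tnfaip8 (r = 0.997), Dele1, Cyp51, Kif21a and Lmbrd2, with megalin at rank 21. Cyp51, an enzyme of cholesterol synthesis, stood at -1.84 (SE 0.28, limma adjusted p = 0.26).

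The sequence before the start of the receptor genes is given because Lrp2 and Cubn, both on chromosome 2, had the largest changes and yet begin in unlike sequence. Each run is the 250 bases upstream of the RefSeq start on GRCm38.p6, both on the minus strand, at chr2:69586030-69586279 for Lrp2 and chr2:13491877-13492126 for Cubn, with GC boxes (GGGCGG on either strand) in capitals.
Lrp2: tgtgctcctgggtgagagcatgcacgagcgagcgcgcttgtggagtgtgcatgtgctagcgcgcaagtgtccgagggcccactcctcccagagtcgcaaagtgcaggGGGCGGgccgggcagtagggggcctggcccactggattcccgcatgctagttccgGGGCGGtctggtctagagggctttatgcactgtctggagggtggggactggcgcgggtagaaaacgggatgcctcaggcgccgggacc
Cubn: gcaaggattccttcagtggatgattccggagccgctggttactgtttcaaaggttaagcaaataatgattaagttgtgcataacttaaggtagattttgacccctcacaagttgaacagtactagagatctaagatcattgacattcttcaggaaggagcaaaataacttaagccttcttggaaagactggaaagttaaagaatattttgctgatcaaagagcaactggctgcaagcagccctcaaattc
The Lrp2 window was 66.4% G and C with 18 CpG pairs, and the Cubn window 39.6% with 2 CpG pairs, against medians of 52.4% and 6 over 32851 promoters. GC boxes were found 2 times for Lrp2, 5 times for Lrpap1, 1 time for Amn and not for Cubn. They were also found 2 times for Ocrl and 1 time in a Clcn5 window, and not for Dab2. Among all promoters 32.7% hold one. The AP-1 site TGANTCA (6.75% of promoters) and the nuclear receptor motif AGGTCA (14.0%), searched on both strands, were in none of the windows of Lrp2, Cubn, Amn and Lrpap1. A match or its absence in so short a window is a description of letters only.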

How the data were processed

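RNA of 6 mouse kidney samples was labelled with Cy3 and hybridised to single-colour Agilent arrays, per the labels' protocols. The intensity values are the processed signals of the deposited scanner files, read with Feature Extraction 10.7.1.1 (slide 1) and 10.7.3.1 (slide 2), per the file headers, with probe positions in mm9. Well above background, saturation and outlier columns are flags, other than intensity, as deposited. The authors' deposited log2 values, used as an alternative, had column medians of 6.07 to 6.09 and a Spearman's rho of at least 0.9999 with the scanner signals of each array; their normalization is unknown, and the submitters' processing notes name limma.

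Control spots were left out (43379 of 45018 spots used), and log2 signals were taken relative to the 75th percentile of the remaining spots of each array. Spots flagged as outliers were then left out on the array concerned. Each gene was read from its brightest probe and entered the tests (19611 genes) if 2 or more of the 6 arrays had it well above background. Tests used limma 3.58.1 in R 4.3.3, two-sided, with Benjamini-Hochberg adjustment over all tested genes and a threshold of 0.05: group means with 2 residual degrees of freedom, and an additive model of genotype and surgery with 3. The labels do not say that arrays come from separate animals, so a p-value here covers no more than the spread among these samples, which may be technical. The number of arrays limits the precision. Fits were tested on simulated data. Of 41174 probes 27660 were named through accessions, 6065 through symbols and 7449 kept the file's name. Of 274 list genes 271 were on the array.

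The 7 genes and the lists were chosen with earlier results of these data known. Named genes were all 7 members, up to 4 members of each pathway list with the largest moderated t for injury over both genotypes, partners and paralogs named whatever their values (Hnf4a, Slc9a3, Atp6v0a4, Clcn4, Inpp5b, Lrp1 and Ctsb among them), and the 5 genes most like Lrp2 and Cubn. A few of these are not reported here. Alternatives covered background correction, scaling, deposited values, filters, probe choice, variance prior, slide and each array left out. For injury within a genotype, Gpr97 deficiency within a surgery and the genotype difference, only wild-type arrays were left out. Each Gpr97-deficient group holds 1 array, so those ranges do not cover the spread of these groups. The probe fit, the overlap counts by scaling, and the lists and overlap counts without wild-type injured 1 were added after seeing the data. The same holds for the Lrp8 bound without each injured array and the differences between members' changes. Promoter sequences are from RefSeq, GRCm38.p6, with all 7 members matched.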

Additional observations from a re-analysis of the deposited data

How the results depend on the processing

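No paired analysis was possible because the labels give the groups no shared replicate numbers; slide stood in as a block and as within-slide pairs. Over 574 values of the 7 genes under the alternatives, 518 of them with a test, 0 passed the adjusted threshold and 37 changed sign. Of these 37, 30 had a test and 7 were within-slide values. Many values could not change sign: the filters and the variance prior leave each change as it is, as does the slide block for injury. Leaving out a wild-type array likewise left injury in Gpr97 deficiency unchanged, at -1.38 for megalin. Gpr97 deficiency over both surgeries is not among the 574. Over both genotypes the injury change of megalin ranged from -1.63 to -1.06 over 16 alternatives, with limma adjusted p from 0.118 to 0.769, that of cubilin from -1.27 to -0.82, of amnionless from -0.89 to -0.46 and of Lrpap1 from -1.13 to -0.53. With slide as a block megalin stood at -1.30 (adjusted p = 0.142). The cause of the changes below was not tested.

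Genes called for injury over both genotypes were 1 with quantile normalization, with normexp, with the deposited values and with slide as a block, and 3 with a robust prior that follows the variance trend, against 0; that prior also gave 1 for Gpr97 deficiency after injury and 1 over both surgeries. Leaving out 1 wild-type array, the median of the 7 genes ranged from -1.07 to -0.35 for injury in wild type. For the difference between genotypes it ranged from -0.32 to 0.19.

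Sign changes concerned values that were not called, among them the -0.39 of Lrp2 for Gpr97 deficiency after injury. With the mean of a gene's probes, Dab2 for injury in wild type was -0.013, injury in Gpr97 deficiency gave Clcn5 0.0081 and Ocrl 0.079, and Ocrl for Gpr97 deficiency after injury was -0.11. With normexp, Ocrl for injury in Gpr97 deficiency was 0.059. With slide as a block, Gpr97 deficiency after sham gave Dab2 0.031 and Clcn5 0.12. The genotype difference in the injury change of Lrp2 was 0.074 with quantile normalization, 0.060 with normexp and 0.18 with the deposited values. Leaving out any 1 array, injury over both genotypes ranged from -0.17 to 0.16 for Clcn5. The ranges that follow leave out 1 wild-type array. Injury in wild type ranged from -0.15 to 0.68 for Dab2 and from -0.23 to 0.35 for Clcn5. Gpr97 deficiency after injury ranged from -0.83 to 0.053 for Lrp2, -0.41 to 0.34 for Amn, -0.33 to 0.51 for Dab2, -0.65 to 0.39 for Lrpap1, -0.025 to 0.27 for Ocrl and -0.48 to 0.11 for Clcn5. Gpr97 deficiency after sham ranged from -0.40 to 0.24 for Amn and -0.61 to 0.16 for Lrpap1. The genotype difference in the injury change ranged from -0.57 to 0.32 for Lrp2, -0.57 to 0.094 for Cubn, -0.32 to 0.43 for Amn, -0.19 to 0.64 for Dab2, -0.42 to 0.62 for Lrpap1 and -0.44 to 0.15 for Clcn5.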
